A study of Danio rerio with 6 samples.

Results

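The interleukin genes of zebrafish were examined in bulk RNA sequencing of sorted, ctsk reporter-positive skeletal cells. Members were all genes whose symbol starts with il followed by a digit, except il34, and 53 of 36351 gene rows met this rule. They comprised 23 ligands or other secreted proteins and 30 receptor or receptor-associated genes, split by whether the symbol continues with r or st after the number. The fish were clcn7-/- mutants and their WT siblings at 10 weeks post fertilization. Both groups carried the ctsk:dsRed transgene, in which the cathepsin K promoter drives a red fluorescent protein. dsRed-positive live cells were sorted from skeletal tissue, 5000 from each fish, and 2 fish were combined into each library. There were 3 clcn7-/- and 3 WT libraries, which the labels call biological replicates. The clcn7 allele is not described in the labels.

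Interleukins are secreted signalling proteins that immune and tissue cells use to direct inflammation and leukocyte growth. Most are read by paired receptor chains, a chain specific to the ligand and a chain shared within a family, such as gp130 (il6st) for interleukin-6 relatives and the common gamma chain (il2rga, il2rgb) for relatives of interleukin-2. Receptors of the interleukin-1 family signal through MyD88 and IRAK kinases, and most others through JAK kinases and STAT factors. In mammals, interleukin-1 and interleukin-6 promote osteoclast formation and bone resorption, whereas interleukin-4 and interleukin-10 restrain them.

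Among the interleukin genes, the ligands il1b, il1fma, il6, il12ba, il16 and il21 and the receptor chains il10ra, il6r, il2rga, il2rgb, il21r.1 and il12rb2l were higher in clcn7-/- libraries. Of the 53 members, 38 reached at least 1 CPM, the read count scaled to the library total, in at least 1 library, and 15 stayed below this level in all 6 libraries and are treated as unmeasured. The low-count filter admitted 44 members to the test, all 38 measured ones and 6 unmeasured ones. In clcn7-/- libraries 12 of the 44 rose and 2 fell, called at a Benjamini-Hochberg adjusted p under 0.05 in the quasi-likelihood test of edgeR. Over all 20438 genes tested, 14.7% were called, 9.91% higher and 4.83% lower, against 31.8% of the tested interleukin genes, 27.3% higher and 4.55% lower. Of 18 tested ligands, 6 rose and 1 fell, and of 26 tested receptors, 6 rose and 1 fell. As log2 fold change, clcn7-/- over WT, the median was 0.58 over tested ligands, 0.06 over tested receptors and -0.05 over all tested genes. In CPM all clcn7-/- libraries lay above all WT libraries in 17 of the 38 measured members, and below them in 2. Of the tested members below 1 CPM, il10 did not overlap either, with clcn7-/- higher, nor did il26, with clcn7-/- lower. The background was not held to 1 CPM. Over all genes tested the genotypes did not overlap in 37.5%, 25.9% with clcn7-/- higher and 11.6% with clcn7-/- lower. The 14 called genes were all among the members without overlap, which a call on the same counts makes likely beforehand. Passing the filter in 1 genotype is enough for a test, so these shares describe the tested members and not all members. Both falls depended on every library. Without any 1 of the 6 libraries the count of fallen receptors was 0, and the count of fallen ligands was 0 in 5 of these fits and 1 without clcn7-/- replicate 2, where the fallen ligand was il15l and not il15. Among the rises, the call of il2rgb was likewise lost without any 1 library. Those of il6, il12ba and il12rb2l were lost without some libraries, and the other risen members kept theirs.

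**Figure D1:**
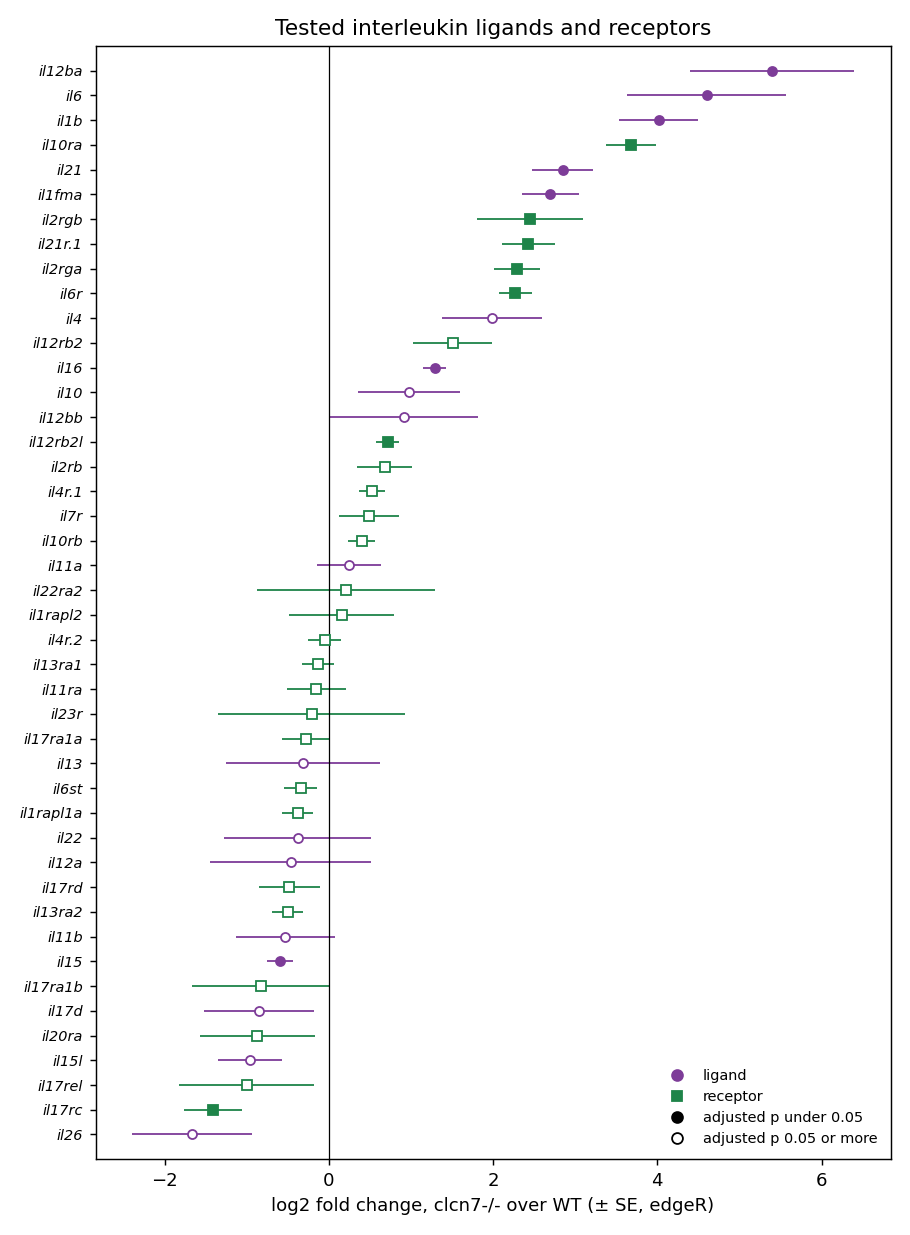
Log2 fold change, clcn7-/- over WT, with its SE for the 44 tested interleukin genes, from the edgeR fit over all genes, with ligands as circles and receptors as squares. Filled symbols mark the 14 genes with adjusted p under 0.05, of which 12 lie to the right of 0 and 2, il15 and il17rc, to the left.

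The libraries held between 22739782 and 26951306 read counts over genes. Transcripts of clcn7, which encodes a lysosomal chloride-proton exchanger, were at 39.8, 29.8 and 40.9 CPM in clcn7-/- libraries, against 32.8, 28.7 and 24.5 CPM in WT libraries (adjusted p = 0.482 in edgeR), so gene counts do not check the genotype labels. The osteoclast gene ctsk, which the sort label names and which encodes cathepsin K, was present in every library. It averaged 1258 ± 126 CPM in clcn7-/- and 634 ± 305 CPM in WT libraries (SD, n = 3 each; log2 fold change 0.84 ± 0.30 SE, adjusted p = 0.102 in edgeR). Markers of other cell types were present too. Osteoblast markers summed to between 42980 and 60745 CPM in clcn7-/- and between 56116 and 81766 CPM in WT libraries. Most of this sum was type I collagen, with col1a1a, col1a1b and col1a2 at 14290, 18840 and 19650 CPM in clcn7-/- replicate 1. By contrast, sp7 of the same list averaged 6.64 CPM in clcn7-/- and 10.5 CPM in WT libraries. Keratinocyte markers summed to between 20222 and 31507 CPM in clcn7-/- and between 45712 and 52888 CPM in WT libraries. In such mixed material, more cells of a type and more RNA per cell cannot be told apart.

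Both measured ligands of the interleukin-1 family rose. il1b, which encodes the inflammatory cytokine interleukin-1 beta, stood at 259, 379 and 234 CPM in clcn7-/- replicates 1, 2 and 3, against 20.6, 6.12 and 21.7 CPM in WT replicates 1, 2 and 3. The genotypes did not overlap, and the lowest clcn7-/- library lay above 10 times the highest WT library. Its log2 fold change was 4.02 ± 0.48 (SE; adjusted p = 0.00244 in edgeR). il1fma, an interleukin-1 family member described in fish, stood at 38.4, 21.5 and 32.2 CPM in clcn7-/- libraries, against 6.21, 3.75 and 2.81 CPM in WT libraries. It was higher in all 3 clcn7-/- libraries, with a log2 fold change of 2.7 ± 0.35 (adjusted p = 0.00307 in edgeR).

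Among ligands read through gp130, il6 rose, whereas il11a and il11b did not pass the test. il6, which encodes interleukin-6, stood at 9.45, 11.5 and 7.16 CPM in clcn7-/- libraries, against 0, 0.148 and 0.897 CPM in WT libraries. The WT values rest on 0, 4 and 22 reads, and clcn7-/- values on 215, 310 and 185 reads, so its WT level is poorly fixed. The log2 fold change was 4.60 ± 0.97 (adjusted p = 0.0193 in edgeR), and 6.78 without WT replicate 3. The call was lost without WT replicate 2 (adjusted p = 0.072 in edgeR), without clcn7-/- replicate 1 (adjusted p = 0.0522 in edgeR) and without clcn7-/- replicate 2 (adjusted p = 0.0519 in edgeR). il11a stood at 1.93, 2.31 and 2.09 CPM in clcn7-/- libraries, against 1.55, 2.00 and 1.22 CPM in WT libraries, and these ranges overlapped (adjusted p = 0.715 in edgeR). il11b stood at 0.616, 1.23 and 0.619 CPM in clcn7-/- libraries, against 0.871, 0.631 and 1.71 CPM in WT libraries (adjusted p = 0.601 in edgeR). Both il11 genes encode relatives of interleukin-11, which in mammals also acts on bone cells.

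Of the interleukin-12 subunits, 1 of 3 rose. il12ba encodes a form of the p40 subunit, which in mammals is shared by interleukin-12 and interleukin-23. It stood at 2.95, 0.782 and 7.94 CPM in clcn7-/- libraries, against 0.0758, 0.0371 and 0.122 CPM in WT libraries, where it had 2, 1 and 3 reads. The clcn7-/- libraries lay above the WT libraries but differed widely among themselves, with clcn7-/- replicate 3 the highest and replicate 2 the lowest. The log2 fold change was 5.40 ± 1.00 (adjusted p = 0.0117 in edgeR), and 4.39 without clcn7-/- replicate 3. The call was lost without WT replicate 2 (adjusted p = 0.0534 in edgeR) and with limma-voom (adjusted p = 0.0762, log2 fold change 4.46). A stricter low-count filter left il12ba untested. The other p40 gene, il12bb, averaged 2.19 ± 1.90 CPM in clcn7-/- and 1.03 ± 0.889 CPM in WT libraries (SD, n = 3 each; adjusted p = 0.543 in edgeR). il12a, which encodes the p35 partner, stood at 0.748, 0.0745 and 1.05 CPM in clcn7-/- libraries, against 1.33, 0.186 and 0.816 CPM in WT libraries (adjusted p = 0.795 in edgeR).

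The ligands of the common gamma chain and the interleukin-4 group went both ways. il21, whose mammalian product is a T cell cytokine, stood at 6.24, 5.70 and 9.41 CPM in clcn7-/- libraries, against 0.985, 1.04 and 0.612 CPM in WT libraries. The genotypes did not overlap, and the log2 fold change was 2.85 ± 0.37 (adjusted p = 0.00318 in edgeR). il15 encodes a cytokine that in mammals sustains natural killer and memory T cells. It stood at 13.8, 14.7 and 18.0 CPM in clcn7-/- libraries, against 22.8, 19.4 and 20.5 CPM in WT libraries. All clcn7-/- values lay below all WT values, but the gap was small and the log2 fold change was -0.59 ± 0.16 (adjusted p = 0.0452 in edgeR). The call of il15 was lost without any 1 of the 6 libraries (adjusted p between 0.0505 and 0.157 in edgeR), with RLE factors (adjusted p = 0.0514 in edgeR), with library size alone (adjusted p = 0.125 in edgeR), with no low-count filter (adjusted p = 0.0663 in edgeR) and with a replicate block (adjusted p = 0.0703 in edgeR).

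The remaining ligands of this group did not pass. il15l, an interleukin-15-like gene of fish, stood at 16.8, 59.6 and 33.8 CPM in clcn7-/- libraries, against 53.5, 63.0 and 74.1 CPM in WT libraries. The ranges overlapped through clcn7-/- replicate 2, without which il15l was lower (log2 fold change -1.49, adjusted p = 0.0273 in edgeR), against -0.96 ± 0.39 over all libraries (adjusted p = 0.149 in edgeR). il4 stood at 1.41, 3.69 and 3.14 CPM in clcn7-/- libraries, against 0.303, 0.519 and 1.02 CPM in WT libraries. Its genotypes did not overlap, the log2 fold change was 1.99 ± 0.61 (adjusted p = 0.0667 in edgeR), and it passed in DESeq2 (adjusted p = 0.0127) and with a replicate block (adjusted p = 0.048 in edgeR). il13 stood at 1.23, 0.186 and 1.36 CPM in clcn7-/- libraries, against 0.871, 2.00 and 0.204 CPM in WT libraries, with full overlap (adjusted p = 0.866 in edgeR). il4 and il13 of fish encode the cytokines of type 2 immunity.

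il16 had the smallest p-value of the ligands. In mammals its product is a precursor whose cleaved end attracts CD4-positive cells, and it is unrelated in sequence to the other interleukins. It stood at 88.0, 86.8 and 78.2 CPM in clcn7-/- libraries, against 33.9, 30.9 and 28.5 CPM in WT libraries. The genotypes were far apart relative to the spread within each, with a log2 fold change of 1.29 ± 0.14 (adjusted p = 0.00187 in edgeR).

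Ligands of the interleukin-10 and interleukin-17 families were low, and all but il17d stayed below 1 CPM. il10, which encodes the anti-inflammatory interleukin-10, stood at 0.880, 0.782 and 0.387 CPM in clcn7-/- libraries, against 0.227, 0.334 and 0.367 CPM in WT libraries (log2 fold change 0.98 ± 0.62, adjusted p = 0.334 in edgeR). All clcn7-/- values of il10 lay above all its WT values, though only just. il10 stayed below 1 CPM in all libraries, as did il22, il26 and il19l of the same family and il17a/f1, il17a/f2, il17a/f3 and il17c. il17a/f1 had no read in any library, and il17c had 5, 6 and 0 reads in clcn7-/- and none in WT libraries. Of these 8 genes il10, il22 and il26 passed the low-count filter, and none of the 3 passed the test. il26, whose human product is a cytokine of T cells and which is given here after its values were seen, stood at 0.220, 0.335 and 0.0774 CPM in clcn7-/- libraries, against 0.417, 0.891 and 0.530 CPM in WT libraries. All clcn7-/- values lay below all WT values, on 2 to 9 reads in clcn7-/- and 11 to 24 reads in WT libraries (log2 fold change -1.67 ± 0.73, adjusted p = 0.172 in edgeR). il17d averaged 0.524 ± 0.352 CPM in clcn7-/- and 0.856 ± 0.223 CPM in WT libraries (SD, n = 3 each; adjusted p = 0.443 in edgeR).

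**Figure D2:**
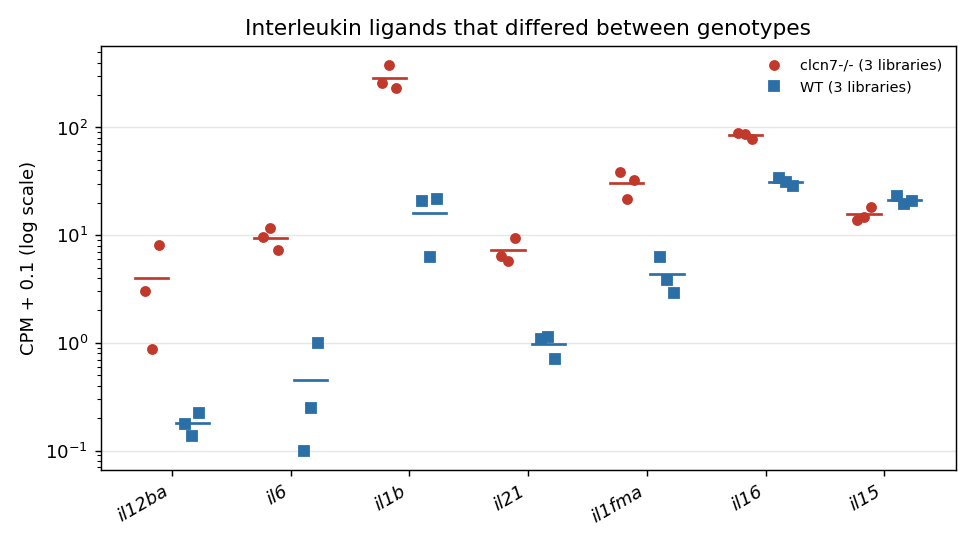
CPM plus 0.1 on a log axis for the 7 interleukin ligands with adjusted p under 0.05, with 1 point per library, clcn7-/- as circles and WT as squares, and bars at the mean of 3 libraries. All 7 genes separate the genotypes completely, 6 with clcn7-/- above WT and il15 with clcn7-/- slightly below.

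The receptors with the smallest p-values were the ligand-binding chains for interleukin-10 and interleukin-6. il10ra, which encodes the ligand-binding chain for interleukin-10, stood at 33.1, 21.6 and 39.8 CPM in clcn7-/- libraries, against 2.2, 2.75 and 1.67 CPM in WT libraries. All clcn7-/- libraries lay well above all WT libraries, and the log2 fold change was 3.68 ± 0.30 (adjusted p = 0.000771 in edgeR). The shared partner chain il10rb averaged 77.6 ± 13.9 CPM in clcn7-/- and 52.9 ± 1.17 CPM in WT libraries (SD, n = 3 each), a log2 fold change of 0.40 ± 0.16 that did not pass (adjusted p = 0.129 in edgeR). il6r, which encodes the interleukin-6 binding chain, stood at 90.7, 94.3 and 84.1 CPM in clcn7-/- libraries, against 15.8, 13.5 and 21 CPM in WT libraries. Again the genotypes did not overlap, with a log2 fold change of 2.27 ± 0.20 (adjusted p = 0.000856 in edgeR). il6st, the gp130 signalling chain, stood at 50.6, 74.8 and 65.6 CPM in clcn7-/- libraries, against 61.7, 65.2 and 89.4 CPM in WT libraries, and these overlapped (log2 fold change -0.34 ± 0.20, adjusted p = 0.305 in edgeR). il11ra, the interleukin-11 binding chain, averaged 82.5 ± 37.9 CPM in clcn7-/- and 82.9 ± 13.3 CPM in WT libraries (SD, n = 3 each; adjusted p = 0.83 in edgeR).

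The chains that bind interleukin-21 rose together. il21r.1 stood at 56.2, 31.2 and 80.7 CPM in clcn7-/- libraries, against 10.3, 8.72 and 8.97 CPM in WT libraries. Its log2 fold change was 2.43 ± 0.32 (adjusted p = 0.00353 in edgeR). il2rga, a common gamma chain gene, stood at 59.2, 38.8 and 81.6 CPM in clcn7-/- libraries, against 13.5, 10.1 and 9.54 CPM in WT libraries. It had a log2 fold change of 2.29 ± 0.28 (adjusted p = 0.00262 in edgeR), and both genes were highest in clcn7-/- replicate 3 and, among mutants, lowest in clcn7-/- replicate 2. il2rgb, the paralog of il2rga, stood at 1.14, 0.707 and 1.24 CPM in clcn7-/- libraries, against 0.189, 0.223 and 0.0816 CPM in WT libraries, where it had 5, 6 and 2 reads. Its call (log2 fold change 2.45 ± 0.64, adjusted p = 0.0419 in edgeR) was lost without any 1 library (adjusted p between 0.0662 and 0.147 in edgeR), with no low-count filter (adjusted p = 0.08 in edgeR), with limma-voom (adjusted p = 0.0521) and with a replicate block (adjusted p = 0.0876 in edgeR). A stricter low-count filter left il2rgb untested. il21r.2 stayed below 1 CPM in all libraries. The paralog pairs il21r.1 and il21r.2, il2rga and il2rgb, and il4r.1 and il4r.2 may share reads, and the sources used here do not say how shared reads were counted.

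The chains il2rb, il7r, il4r.1, il4r.2, il13ra1 and il13ra2 did not pass. il2rb, a signalling chain for interleukin-2 and interleukin-15, averaged 6.47 ± 2.12 CPM in clcn7-/- and 3.62 ± 0.988 CPM in WT libraries (SD, n = 3 each; adjusted p = 0.209 in edgeR). il7r, the interleukin-7 binding chain of lymphocytes, averaged 8.46 ± 4.11 CPM in clcn7-/- and 5.39 ± 0.786 CPM in WT libraries (SD, n = 3 each; adjusted p = 0.422 in edgeR). il4r.1, an interleukin-4 receptor chain, stood at 64.6, 81.2 and 60.0 CPM in clcn7-/- libraries, against 39.1, 42.4 and 46.9 CPM in WT libraries. Its genotypes did not overlap, but the log2 fold change of 0.53 ± 0.16 missed the threshold (adjusted p = 0.0694 in edgeR) and passed it with library size alone (adjusted p = 0.0269 in edgeR), DESeq2 (adjusted p = 0.0276) and limma-voom (adjusted p = 0.0474). il4r.2 averaged 17.7 ± 4.22 CPM in clcn7-/- and 16.4 ± 1.46 CPM in WT libraries (SD, n = 3 each; adjusted p = 0.909 in edgeR). The interleukin-13 chains il13ra1 (71.7 ± 15.8 CPM in clcn7-/- and 70.4 ± 10.6 CPM in WT libraries) and il13ra2, a decoy in mammals (20.0 ± 3.83 CPM in clcn7-/- and 25.3 ± 3.50 CPM in WT libraries, SD, n = 3 each), also did not pass (adjusted p = 0.694 and 0.12 in edgeR).

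In the interleukin-12 receptor group, il12rb2l rose modestly. It stood at 67.3, 74.9 and 68.7 CPM in clcn7-/- libraries, against 43.6, 32.9 and 38.7 CPM in WT libraries. The genotypes did not overlap (log2 fold change 0.72 ± 0.14, adjusted p = 0.0161 in edgeR), and the call was lost without WT replicate 2 (adjusted p = 0.0604 in edgeR) or WT replicate 3 (adjusted p = 0.0601 in edgeR). il12rb2, an interleukin-12 signalling chain, stood at 7.65, 6.55 and 13.3 CPM in clcn7-/- libraries, against 5.0, 2.11 and 1.55 CPM in WT libraries. Its log2 fold change of 1.51 ± 0.48 missed the threshold (adjusted p = 0.0733 in edgeR), and it passed in DESeq2 (adjusted p = 0.0131), in limma-voom (adjusted p = 0.0243) and without WT replicate 1 (log2 fold change 2.19, adjusted p = 0.0216 in edgeR). il23r stayed below 1 CPM in all libraries.

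il17rc was the receptor that fell. In mammals it pairs with the interleukin-17 receptor A chain and is used by epithelial and mesenchymal cells. It stood at 1.58, 2.64 and 3.10 CPM in clcn7-/- libraries, against 7.73, 4.93 and 4.81 CPM in WT libraries. The genotypes did not overlap (log2 fold change -1.41 ± 0.35, adjusted p = 0.0362 in edgeR), and the call was lost without any 1 library (adjusted p between 0.0502 and 0.119 in edgeR), with library size alone (adjusted p = 0.0582 in edgeR) and with a replicate block (adjusted p = 0.0643 in edgeR). Its partner il17ra1a averaged 5.81 ± 1.49 CPM in clcn7-/- and 6.36 ± 1.59 CPM in WT libraries (SD, n = 3 each; adjusted p = 0.565 in edgeR). il17rd, which also restrains fibroblast growth factor signalling, averaged 6.76 ± 2.79 CPM in clcn7-/- and 8.51 ± 1.69 CPM in WT libraries (SD, n = 3 each; adjusted p = 0.429 in edgeR). il17rel averaged 0.527 ± 0.484 CPM in clcn7-/- and 0.940 ± 0.357 CPM in WT libraries, and did not pass either (SD, n = 3 each; adjusted p = 0.462 in edgeR). il17ra1b stayed below 1 CPM, and il17ra2 had no read in any library.

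The last receptors were those of the interleukin-1 and interleukin-10 families. il1rapl1a, whose mammalian relative is a synaptic adhesion protein, stood at 24.1, 27.7 and 18.2 CPM in clcn7-/- libraries, against 26.1, 27.2 and 29.0 CPM in WT libraries (adjusted p = 0.218 in edgeR). These ranges overlapped. il1rl1, il1rapl1b and il1rapl2 stayed below 1 CPM in all libraries. Of these, il1rl1 was lower in every clcn7-/- library, on 1, 0 and 4 reads in clcn7-/- and 17, 6 and 12 reads in WT libraries. It did not pass the low-count filter and was not tested. il20ra averaged 1.45 ± 1.21 CPM in clcn7-/- and 2.36 ± 0.403 CPM in WT libraries (SD, n = 3 each; adjusted p = 0.457 in edgeR). il22ra2, a secreted decoy for interleukin-22 in mammals, averaged 1.06 ± 0.309 CPM in clcn7-/- and 0.821 ± 1.2 CPM in WT libraries (SD, n = 3 each; adjusted p = 0.923 in edgeR), and WT replicate 3 alone held 2.2 CPM of it.

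**Figure D3:**
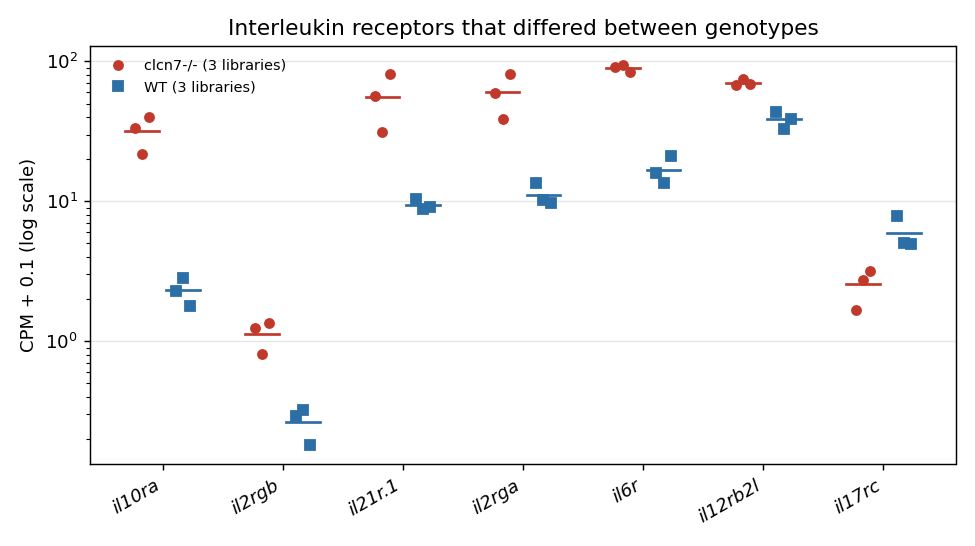
CPM plus 0.1 on a log axis for the 7 interleukin receptors with adjusted p under 0.05, with 1 point per library, clcn7-/- as circles and WT as squares, and bars at the mean of 3 libraries. In all 7 the genotypes separate completely, with il17rc the one gene whose clcn7-/- libraries lie below the WT libraries.

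Ratios of read counts within a library do not depend on how libraries are scaled, and were taken for 12 pairs of partner genes. In mixed material the 2 genes of a pair may be read from different cells, so a ratio does not describe the receptor of any cell. The il6r to il6st ratio was 1.79, 1.26 and 1.28 in clcn7-/- libraries, against 0.256, 0.207 and 0.235 in WT libraries. Reads of il6r were thus higher relative to those of il6st in every mutant library. The il10ra to il10rb ratio was 0.435, 0.334 and 0.432 in clcn7-/- libraries, against 0.0425, 0.0519 and 0.0309 in WT libraries, also without overlap. The il21r.1 to il2rga ratio was 0.950, 0.802 and 0.989 in clcn7-/- libraries, against 0.764, 0.867 and 0.940 in WT libraries. These last ranges overlapped, with means of 0.914 in clcn7-/- and 0.857 in WT libraries, while each gene by itself differed in CPM by over 2 on the log2 scale. The il2rb to il2rga ratio averaged 0.111 in clcn7-/- and 0.326 in WT libraries, and the il4r.1 to il2rga ratio 1.31 in clcn7-/- and 4.01 in WT libraries, both lower in every clcn7-/- library. The il17rc to il17ra1a ratio was 0.330, 0.351 and 0.606 in clcn7-/- libraries, against 0.944, 0.930 and 0.861 in WT libraries. The il12ba to il12bb ratio averaged 1.62 in clcn7-/- and 0.114 in WT libraries, without overlap but with 1 to 3 WT reads of il12ba. With 3 libraries against 3 the smallest p of a two-sided exact permutation test is 0.1, so none could pass 0.05. The 7 pairs without overlap reached this p (0.171 after Benjamini-Hochberg adjustment over the 12 pairs). Each of the 7 set a called gene against an uncalled one, so its ratio largely repeats that call. Ratios of other gene pairs were not taken, so no background share stands beside the 7.

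**Figure D4:**
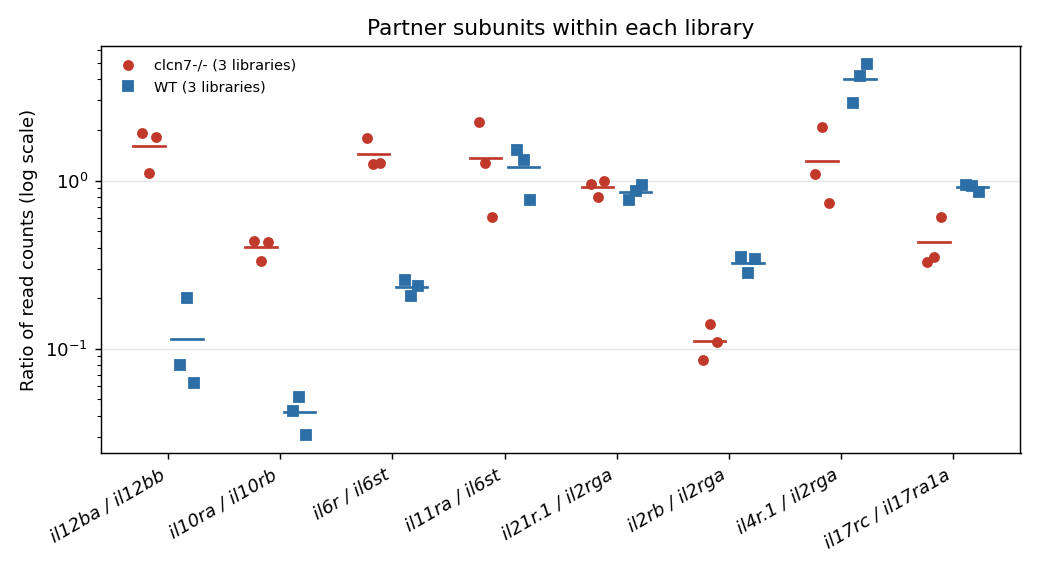
Ratio of the read counts of 2 partner genes within each library on a log axis, for 8 of the 12 pairs, with clcn7-/- as circles, WT as squares and bars at the mean of 3 libraries. The il6r to il6st and il10ra to il10rb ratios are higher in every clcn7-/- library, whereas the il21r.1 to il2rga ratios of the genotypes overlap near 1.

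Macrophage and neutrophil markers were also higher in clcn7-/- libraries. Shares of each marker list are of its tested genes, beside 9.91% higher and 4.83% lower over all tested genes. The lists were chosen with earlier results of these data known, so these shares are descriptive and test no excess. Of 21 macrophage markers in the files 18 rose (85.7%). This list includes ptprc, lcp1 and coro1a, which are common to all leukocytes and were all among the risen genes. The summed level of the list lay between 8231 and 16248 CPM in clcn7-/- and between 1628 and 2774 CPM in WT libraries. Of 17 neutrophil markers in the files 14 rose (87.5%), with a summed level between 3534 and 4117 CPM in clcn7-/- and between 924 and 1126 CPM in WT libraries. Of 24 lymphocyte markers in the files, a list that includes il2rb and il7r, 4 rose (19.0%) and 1 fell (4.76%), and 16 of the 21 tested did not pass. The summed level lay between 231 and 522 CPM in clcn7-/- and between 74.1 and 107 CPM in WT libraries. Without tnfrsf9a, which held most of it in clcn7-/- libraries and was left out after its values were seen, it lay between 79.2 and 180 CPM in clcn7-/- and between 49.6 and 60.7 CPM in WT libraries. None of these markers was at 0 in all libraries, while cxcr2 in the neutrophil list and ighz, nkl.2 and nkl.4 in the lymphocyte list stayed below 1 CPM. Endothelial markers rose for 7 of 15 genes (46.7%), with 1 lower (6.67%), and summed to between 622 and 1893 CPM in clcn7-/- and between 190 and 289 CPM in WT libraries. Erythroid markers rose for 11 of 14 genes (84.6%) and summed to between 1089 and 2821 CPM in clcn7-/- and between 306 and 563 CPM in WT libraries, with hbae5 below 1 CPM. Keratinocyte markers fell for 11 of 19 genes (57.9%), osteoblast markers for 5 of 15 (33.3%) and fibroblast markers for 3 of 14 (21.4%), none rising. Fibroblast markers summed to between 9584 and 12468 CPM in clcn7-/- and between 13710 and 15227 CPM in WT libraries. Osteoclast markers, 2 of 17 higher (11.8%) and 1 lower (5.88%), both near the shares of all tested genes, summed to between 2676 and 3908 CPM in clcn7-/- and between 1409 and 2973 CPM in WT libraries. The part of these markers' cells in the interleukin changes was not tested.

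Each gene's reads were also set against those of genes common to all leukocytes. This scale cannot tell more cells from more RNA per cell, and it does not test a cause. The summed level of 3 such genes, ptprc, lcp1 and coro1a, was 1337, 985 and 1426 CPM in clcn7-/- libraries, against 264, 138 and 146 CPM in WT libraries, 6.83 times higher on average. Most of this sum was lcp1, at 842.1, 594.2 and 872.7 CPM in clcn7-/- and 162.3, 78.7 and 75.45 CPM in WT libraries, so the scale rests mainly on that gene. Expressed per 1000 reads of the 3 genes, il1b stood at 193, 384 and 164 in clcn7-/- libraries, against 77.8, 44.3 and 149 in WT libraries, and il10ra at 24.8, 21.9 and 27.9 in clcn7-/- libraries, against 8.31, 19.9 and 11.5 in WT libraries. These were 2 of the 12 risen interleukin genes, and in both the clcn7-/- libraries remained above all WT libraries, by a narrow margin. The same held for 6.72% of the 2025 risen genes and for 0.665% of all genes tested. For 8 of the 12 the genotypes overlapped: il12ba, il6, il1fma, il21, il21r.1, il2rga, il2rgb and il6r. Of these, il12ba averaged 2.85 in clcn7-/- and 0.465 in WT libraries per 1000 leukocyte reads, and il6 7.94 in clcn7-/- and 2.41 in WT libraries. Both overlapped only through WT replicate 3, which held 3 reads of il12ba and 22 of il6. il1fma averaged 24.4 in clcn7-/- and 23.3 in WT libraries, and il21 5.68 in clcn7-/- and 5.15 in WT libraries. il6r averaged 74.2 in clcn7-/- and 101 in WT libraries, and il21r.1, il2rga and il2rgb also averaged lower in clcn7-/- libraries. il6, with no read in 1 WT library, was given no test on this scale. il16 and il12rb2l were lower in every clcn7-/- library on this scale, at 69.6 in clcn7-/- and 182 in WT libraries for il16 and 58.2 in clcn7-/- and 223 in WT libraries for il12rb2l, as were 59.8% of all risen genes. The 2 fallen genes, il15 and il17rc, were lower too, as were 89.6% of all tested genes. With 3 libraries against 3 the smallest two-sided exact permutation p is again 0.1, and the smallest adjusted value over these ratios was 0.217. The 3 leukocyte genes and this scale were chosen after the data had been seen.

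**Figure D5:**
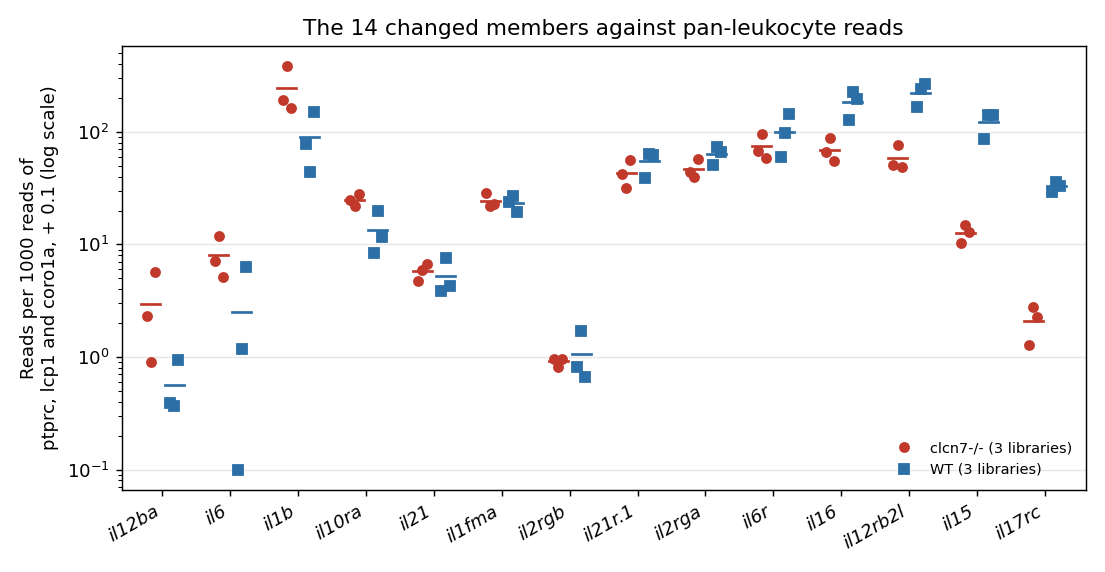
Reads of each of the 14 called interleukin genes per 1000 reads of ptprc, lcp1 and coro1a in the same library, plus 0.1, on a log axis, with clcn7-/- as circles, WT as squares and bars at the mean of 3 libraries. il1b and il10ra are the 2 genes with all clcn7-/- libraries above all WT libraries, and il16, il12rb2l, il15 and il17rc those with all clcn7-/- libraries below.

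Genes related to interleukin signalling were counted in 4 lists, beside the 9.91% higher and 4.83% lower of all tested genes. Not all of them act downstream of interleukin receptors, since the lists also hold genes of cytokine release and related cytokine receptors and ligands. The lists were chosen with earlier results of these data known, so their shares describe them and test no excess. Of 17 JAK-STAT genes 5 rose, or 29.4%, and none fell, and the median of their log2 fold changes was 0.28. jak3, the kinase that works with the common gamma chain, rose to 34.5 ± 7.67 CPM in clcn7-/-, against 7.51 ± 2.12 CPM in WT libraries (SD, n = 3 each; log2 fold change 2.05 ± 0.26, adjusted p = 0.00296 in edgeR). The phosphatase gene ptpn6 (log2 fold change 2.52 ± 0.30, adjusted p = 0.0023 in edgeR) and the kinase gene jak2a (1.04 ± 0.14, adjusted p = 0.00394 in edgeR) rose as well. jak1 averaged 439 ± 68.1 CPM in clcn7-/- and 294 ± 24.5 CPM in WT libraries (SD, n = 3 each; adjusted p = 0.11 in edgeR), and passed with library size alone (adjusted p = 0.0434 in edgeR). stat3, which relays interleukin-6 and interleukin-10 signals, averaged 202 ± 19.4 CPM in clcn7-/- and 150.2 ± 13.4 CPM in WT libraries (SD, n = 3 each; adjusted p = 0.234 in edgeR).

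Among 16 genes of MyD88 and interleukin-17 receptor signalling 4 rose, or 25.0%, against 9.91% of all tested genes, and none fell, and the median of their log2 fold changes was -0.03. myd88 itself averaged 54.6 ± 7.90 CPM in clcn7-/- and 48.7 ± 2.66 CPM in WT libraries (SD, n = 3 each; adjusted p = 0.981 in edgeR). The risers with the smallest p encode irak3, a brake on MyD88 signalling (log2 fold change 1.69 ± 0.31, adjusted p = 0.0111 in edgeR), tnip1 (0.79 ± 0.16, adjusted p = 0.0152 in edgeR) and the adaptor tirap (1.99 ± 0.41, adjusted p = 0.0186 in edgeR). Their calls were lost without WT replicate 3 (adjusted p = 0.051, 0.0573 and 0.0711 in edgeR), and those of tnip1 and tirap also without WT replicate 2 (adjusted p = 0.0569 and 0.0713 in edgeR) or clcn7-/- replicate 1 (adjusted p = 0.0529 and 0.0686 in edgeR).

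Caspases and gasdermins process and release interleukin-1 beta. Of 11 listed genes of these kinds and of immune adaptors, 7 were found among the gene rows. Of these 7, 5 rose, or 71.4%, against 9.91% of all tested genes, and none fell. As the list was chosen with earlier results of these data known, this share describes the list and tests no excess. The median of their log2 fold changes was 0.87. The immune adaptor gene card9 (4.79 ± 0.33, adjusted p = 0.000547 in edgeR), the pore-forming gasdermin gene gsdmea (2.73 ± 0.38, adjusted p = 0.00422 in edgeR) and caspa, a caspase-1-like gene of zebrafish (1.79 ± 0.34, adjusted p = 0.0135 in edgeR), had the smallest p. The call of caspa was lost without WT replicate 2 (adjusted p = 0.0535 in edgeR) or WT replicate 3 (adjusted p = 0.0601 in edgeR). pycard, which encodes the inflammasome adaptor ASC, averaged 105.0 ± 20.5 CPM in clcn7-/- and 51.8 ± 17.0 CPM in WT libraries (SD, n = 3 each) and narrowly missed the threshold (log2 fold change 0.87 ± 0.25, adjusted p = 0.0562 in edgeR). It passed in 8 of 14 alternative fits, DESeq2 and limma-voom included. Of 16 related cytokine receptors and ligands 15 were tested, 2 rose, or 13.3%, which is near the 9.91% of all tested genes, and none fell, and the median of their log2 fold changes was -0.30. These were csf3r, the granulocyte colony-stimulating factor receptor (3.06 ± 0.32, adjusted p = 0.00171 in edgeR), and csf2rb, a shared beta chain (2.54 ± 0.41, adjusted p = 0.00752 in edgeR). Over the 4 lists 16 genes rose, 9 without WT replicate 2 or WT replicate 3 and 10 without clcn7-/- replicate 1.

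Interleukin genes were also placed relative to the mutated gene, since DNA around a mutation is inherited with it. Of the 53 members 50 were matched by symbol to a table of the GRCz12tu assembly, which is not the assembly used by the authors, and 6 of them lie on the same chromosome as clcn7. All 6 are receptors: il12rb2l, il2rb, il4r.1, il4r.2, il21r.1 and il21r.2. Of these il12rb2l and il21r.1 were called, and the other 12 called members lie elsewhere. il21r.2 did not pass the low-count filter and so could not be called. Over all genes tested 14.7% were called, and the share called on this chromosome was not counted. Distances to clcn7 were not taken, so a shared chromosome does not place a gene near the mutation. A part of linked DNA in these changes was not tested.

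In the authors' deposited table, made with DESeq2, 17 of the 47 members with an adjusted p had one under 0.05. All 14 members called with edgeR were among them. The other 3 in the authors' deposited table were il4 (log2 fold change 2.01, adjusted p = 0.0174), il12rb2 (1.52, adjusted p = 0.0184) and il4r.1 (0.54, adjusted p = 0.0255). The share of all genes called in that table was not counted, so no background share stands beside the 17. Over all genes, the DESeq2 fit made here called 2720 higher and 1862 lower, against 2025 and 987 in edgeR.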

How the data were processed

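Counts of reads per gene, 1 file per library, were deposited by the authors for 3 clcn7-/- and 3 WT libraries. The submitters' processing notes name the build GRCz11 and the tools HTSeq 0.9.1, STAR 2.7.0a, DESeq2 and Trim Galore. The sources used here name no annotation, strand setting or tool settings. The 5 rows that name no gene held between 20.1% and 23.0% of counts and were left out. CPM here is the count over the library's gene total (22739782 to 26951306 counts), without further scaling. A deposited table by the authors, per the file headers, gives log2 fold changes, log2 expression values (not used in any test here) and adjusted p-values.

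Genes passing filterByExpr (minimum count 10, minimum total 15) were scaled by TMM (factors 0.94 to 1.08) and tested with edgeR 4.0.16 in R 4.3.3 by glmQLFTest with genotype as the only term, adjusting over 20438 genes. SE is the log2 fold change over the square root of F. limma 3.58.1 (voom with quality weights), DESeq2 1.42.0, other scalings and filters, a replicate block and leaving out each library were the alternatives. The edgeR steps were tested on simulated counts. Whether same-numbered libraries deviate together was checked across genotypes.

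Every interleukin gene at 1 CPM or more in a library is named. Of each signalling list, up to 3 called genes with the smallest p are named, plus myd88, stat3, jak1 and pycard. The members and lists were chosen with earlier results of these data known. Symbols come from the count files. p-values measure the spread between libraries that each pool 2 fish.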

Additional observations from a re-analysis of the deposited data

How the results depend on the processing

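Of 527 values of the 38 measured members over the 14 alternatives, 470 kept their direction and side of the threshold, 34 lost the call, 9 gained it and 14 changed direction, none of these a called gene. The 8 members called in every alternative were il1b, il1fma, il21, il16, il10ra, il6r, il21r.1 and il2rga. Over all genes, risen genes numbered 1157 to 1828 and fallen genes 199 to 737 when 1 library was left out, and fallen genes 1675 with upper-quartile factors, 564 with library size alone and 1862 in DESeq2, against 2025 and 987. With upper-quartile factors 1787 rose, and with library size alone 2626 rose. The median log2 fold change of all genes was -0.16 and 0.10 with these scalings. Risen ligands numbered 4 to 6 and risen receptors 4 to 6 when 1 library was left out, fallen ligands 0 to 1 and fallen receptors 0. Fallen ligands numbered 0 with RLE factors, library size alone, no low-count filter or the replicate block, and fallen receptors 0 with library size alone or the replicate block. Risen genes of the 4 signalling and related lists numbered 9 to 16 and fallen ones 0 to 1 when 1 library was left out. Fallen ones numbered 2 with upper-quartile factors, 2 in DESeq2 and 1 with limma-voom. The cause of these shifts was not tested. Uncalled genes changed direction as follows: il13ra1 (0.03) and il4r.2 (0.11) with library size alone, myd88 with upper-quartile factors (-0.10) and limma-voom (-0.04), and, with 1 library left out, il11b (-0.94 to 0.03), il11ra (-0.46 to 0.20), il12a (-1.03 to 0.17), il13 (-0.76 to 0.65), il13ra1 (-0.29 to 0.05), il22ra2 (-0.30 to 2.86), il4r.2 (-0.20 to 0.12) and myd88 (-0.07 to 0.10). Deviations of same-numbered libraries correlated at 0.24, 0.03 and 0.16, and those of differently numbered ones between -0.21 and 0.03. The labels give replicate numbers and name no pairs, so the numbers were not taken as pairs. The correlations do not settle whether the libraries were paired. 2 of 3 WT and 3 of 3 clcn7-/- libraries correlated best with their own number, a hint from the data and not the design. With the replicate block 7 ligands and 5 receptors rose, against 6 and 6, and 1940 genes rose and 1067 fell over all genes. Members with under 10 reads a library, among them il12ba and il2rgb in WT, are limited by depth.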

Other observations

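The 12 risen interleukin genes did not all peak in the same clcn7-/- library. For 6 of them, il10ra, il12ba, il21, il21r.1, il2rga and il2rgb, the highest clcn7-/- library was replicate 3 and the lowest replicate 2, as for the summed level of ptprc, lcp1 and coro1a. For 3 others, il1b, il6 and il6r, the highest was replicate 2 and the lowest replicate 3. The clcn7-/- values of il6r lay close together, at 90.7, 94.3 and 84.1 CPM, so its order carries little weight. In clcn7-/- replicate 2 il1b stood at 379 CPM and il6 at 11.5 CPM, beside 985 CPM of the 3 leukocyte genes, and in clcn7-/- replicate 3 il1b stood at 234 CPM and il6 at 7.16 CPM, beside 1426 CPM. This order was noticed in the data and was not tested.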
